A study of Mus musculus with 8 samples.

Results

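The genes described here encode subunits of the NMDA receptor, a glutamate-gated ion channel of excitatory synapses. The 6 genes Grin1, Grin2a, Grin2b, Grin2c, Grin2d and Grin3a were taken by name from a table of 31417 genes. All 6 were in the table and all 6 passed the filter on low counts, which left 16228 genes for testing. The hippocampus of Dclk3 knockout mice (KO, 4 libraries) was compared with that of wild-type mice (WT, 4 libraries), all aged 12 months. Dclk3 encodes doublecortin-like kinase 3. Each library came from the poly(A) RNA of a single hippocampus, a whole-tissue sample that mixes neurons and glia. Whether the 4 libraries of a genotype came from 4 animals is not given in the labels, so p-values measure only how these libraries vary, and some of that variation may be technical. How Dclk3 was disrupted, the strain and the sex are not stated in those labels either.

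NMDA receptors open when glutamate and a co-agonist, glycine or D-serine, are bound and the membrane is depolarised, and they then let calcium into the cell. GluN1, encoded by Grin1, is the obligatory subunit and binds the co-agonist. The GluN2 subunits, encoded by Grin2a to Grin2d, bind glutamate and set how long the channel stays open and how strongly magnesium blocks it. In the rodent hippocampus GluN2B predominates early in life and GluN2A rises after birth, so the ratio of Grin2a to Grin2b is widely used as a sign of receptor maturation. GluN2D is best known from interneurons and the young brain, and GluN2C from cerebellar granule cells, the thalamus and astrocytes. GluN3A, encoded by Grin3a, binds glycine rather than glutamate and lowers the calcium flow through the receptor.

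Library totals ran from 29301974 to 35268128 counts in KO and from 30387045 to 36552757 counts in WT. Levels are in CPM, counts scaled to library size with the TMM factors of edgeR, and 1 count was worth 0.0272 to 0.0346 CPM. Because PCR copies were not marked with molecular identifiers, intervals on counts cover counting error and no other. Dclk3, read to check the labels, had 5.92 to 9.29 CPM in KO and 20.8 to 39.3 CPM in WT, with no overlap (log2 fold change -1.79, SE 0.22; adjusted p = 0.234 in edgeR and 3.93e-13 in DESeq2). Markers of granule cells, CA1 and CA2 or CA3 pyramidal cells and GABA neurons, the defining neurons of the hippocampus, were found in every library. Of the 6 cerebellar granule cell markers, Gabra6 and Barhl1 were at 0 counts in some libraries, and Gabra6 never passed 0.0642 CPM. The other 4 were found in every library and passed the filter. Zic1 had 10.7 to 23.8 CPM, Zic2 7.36 to 12.5 CPM, Cdh15 1.28 to 2.09 CPM and Cbln3 0.397 to 0.776 CPM. Choroid plexus markers summed to between 187 and 3434 CPM in KO libraries and between 69.6 and 2201 CPM in WT libraries, so this tissue was included to very unequal extents within both genotypes.

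The subunits differed widely in level. Per kilobase of exon, counting every exonic base once, Grin1 stood highest, at 48.5 ± 4.68 CPM per kb in KO and 52.6 ± 3.82 CPM per kb in WT (mean ± SD, n = 4 each, as for all means here). Grin2b followed at 28.2 ± 11.0 CPM per kb in KO and 31.3 ± 6.39 CPM per kb in WT, and Grin2a at 18.0 ± 5.99 CPM per kb in KO and 19.5 ± 2.85 CPM per kb in WT. Grin2c had 10.4 ± 1.75 CPM per kb in KO and 9.77 ± 0.988 CPM per kb in WT. Grin3a had 4.23 ± 0.259 CPM per kb in KO and 4.84 ± 0.542 CPM per kb in WT, and Grin2d was lowest, at 1.93 ± 0.344 CPM per kb in KO and 2.03 ± 0.190 CPM per kb in WT. On this scale Grin1 lay above 95.1% of the tested genes, Grin2b above 90.7% and Grin2d above 35.2%. The spans of Grin2a and Grin2b over libraries overlapped, although Grin2b was above Grin2a within each of the 8 libraries. In KO replicate 1 Grin2a (11.5 CPM per kb) was below Grin2c (12.9 CPM per kb), while in the other libraries Grin2a was the higher of the pair.

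This order depends in part on the length used, because the genes differ far more in untranslated than in coding sequence. The longest protein-coding transcript of Grin2b has 24060 bases and that of Grin2a 14634, against 4276 for Grin1, 4895 for Grin2c, 5431 for Grin2d and 7491 for Grin3a. The longest coding sequences run from 2877 bases for Grin1 to 4446 for Grin2b. Per kilobase of coding sequence, Grin2b reached 157.6 ± 61.7 CPM per kb in KO and 175 ± 35.7 CPM per kb in WT, within the spread of Grin1 at 163.6 ± 15.8 CPM per kb in KO and 177 ± 12.9 CPM per kb in WT. Grin3a (15.3 ± 0.935 CPM per kb in KO and 17.4 ± 1.95 CPM per kb in WT) was then above Grin2c (14.1 ± 2.37 CPM per kb in KO and 13.2 ± 1.34 CPM per kb in WT). Grin2d was lowest by each of the 3 lengths. Among the GluN2 genes, Grin2b held 47.0% ± 6.06 of the summed level per kb of exon in KO and 49.7% ± 3.19 in WT. Grin2a held 30.3% ± 3.12 in KO and 31.1% ± 0.918 in WT. The share of Grin2c was 19.1% ± 7.42 in KO and 15.9% ± 2.60 in WT, and that of Grin2d 3.52% ± 1.37 in KO and 3.29% ± 0.512 in WT.

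**Figure D1:**
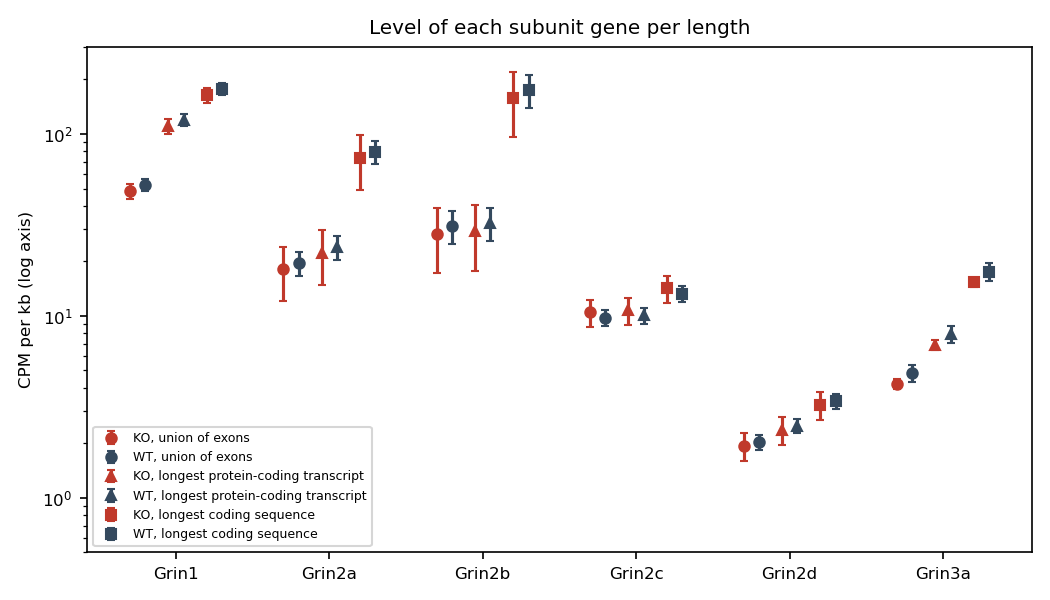
Mean level of each subunit gene in CPM per kb on a log axis, KO in red left of WT in dark blue, with bars of 1 SD over 4 libraries. Circles use the union of exons, triangles the longest protein-coding transcript and squares the longest coding sequence; Grin2d is lowest by all 3, and Grin2b draws level with Grin1 only by coding sequence.

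The comparison of KO with WT asked whether loss of Dclk3 goes with another level of any subunit. None of the 6 genes was called by edgeR's quasi-likelihood test at an adjusted p under 0.05, where 0% of the 16228 tested genes were called. Dclk3 itself was not called in that fit (edgeR adjusted p = 0.234), so a gene that edgeR did not call here may still differ. DESeq2 called none of the 6 either, against 0.0308% of the 16216 genes with an adjusted p in that fit. Of the 6 genes, 5 had a log2 fold change below 0, against 49.9% of all tested genes, with a median of -0.11 where all tested genes had 0.000293. At an unadjusted p under 0.05 there was 1 gene, Grin3a, against 6.16% of tested genes. The KO and WT values overlapped in all 6 genes, while 3.80% of tested genes had no overlap. In bulk tissue, fewer cells of a type and less RNA per cell cannot be told apart, which holds for every level given here.

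Grin1 (ENSMUSG00000026959, mm10 2:25291181 to 25319187, minus strand) was measured with 13530 to 18066 counts per library. It had 434, 489, 526 and 433 CPM in KO replicates 1 to 4, against 503, 541, 461 and 536 CPM in WT replicates 1 to 4. KO replicates 1 and 4 lay below all WT libraries, and the other 2 KO libraries lay inside the WT range. The means were 471 ± 45.4 CPM in KO and 510.1 ± 37.1 CPM in WT. The log2 fold change was -0.12 (SE 0.08, 95% interval -0.30 to 0.07; edgeR adjusted p = 0.824). With single libraries left out it ran from -0.075 (without KO replicate 1) to -0.176 (without KO replicate 3), and with KO replicates 1 and 4 both left out, a choice made after seeing the data, it was -0.00433. The antisense gene Grin1os covers 13.5% of the exon bases of Grin1 but held only 3 to 10 counts per library.

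Grin2a (ENSMUSG00000059003, mm10 16:9567898 to 9995560, minus strand) showed a wide spread in KO. It had 207, 276, 354 and 457 CPM in KO replicates 1 to 4, against 345, 365, 282 and 405 CPM in WT replicates 1 to 4. The KO libraries held both the lowest and the highest of the 8 values, 2 of them below every WT library and 1 above. The highest KO library had 2.21 times the level of the lowest, while WT libraries spanned 1.44-fold. The means were 323 ± 107 CPM in KO and 349 ± 51.2 CPM in WT. The log2 fold change was -0.11, with SE 0.22 and a 95% interval of -0.62 to 0.40 (edgeR adjusted p = 0.940).

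Grin2b (ENSMUSG00000030209, mm10 6:135713233 to 136173511, minus strand) followed the same pattern. It had 439.8, 585, 697 and 1081 CPM in KO replicates 1 to 4, against 750.2, 748, 616 and 996 CPM in WT replicates 1 to 4. Again 2 KO libraries lay below all WT libraries and KO replicate 4 above them. The span was 2.46-fold in KO and 1.62-fold in WT. The means were 701 ± 274 CPM in KO and 777 ± 159 CPM in WT. The log2 fold change was -0.15, with SE 0.26 and a 95% interval of -0.75 to 0.45 (edgeR adjusted p = 0.930). With 16162 to 33773 counts per library, counting error was 0.653% of a level, far below this spread. The direction of both genes rested on single libraries: without KO replicate 1 the log2 fold change was 0.0559 for Grin2a and 0.0216 for Grin2b, and without KO replicate 4 it was -0.326 and -0.439, with edgeR adjusted p-values of 0.540 and 0.462.

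**Figure D2:**
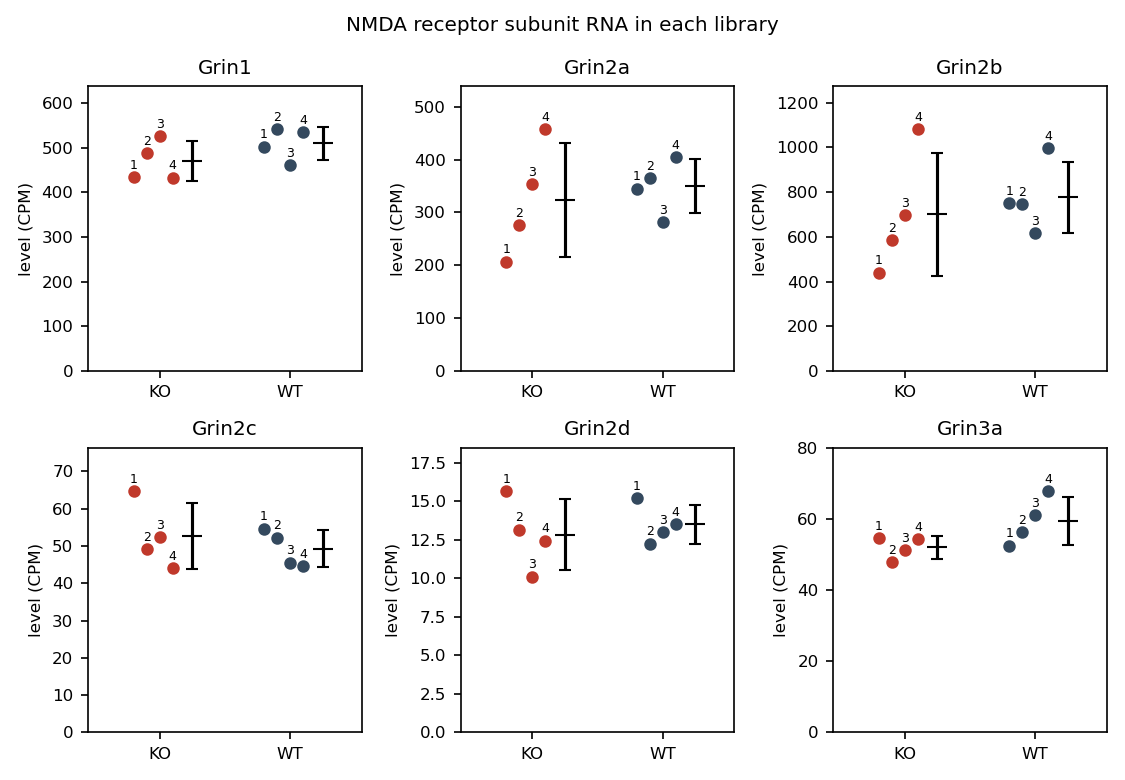
Level of each of the 6 genes in CPM in the 4 KO libraries (red, left) and the 4 WT libraries (dark blue, right), with replicate numbers above the points and the mean ± SD beside them. KO replicates 1 and 4 mark the ends of the range for Grin2a and Grin2b, while the KO values of Grin3a keep within 47.8 to 54.6 CPM.

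Grin2c (ENSMUSG00000020734, mm10 11:115249169 to 115267243, minus strand) was the only one of the 6 with a log2 fold change above 0. It had 64.7, 49.1, 52.4 and 44.0 CPM in KO replicates 1 to 4, against 54.7, 52.2, 45.5 and 44.5 CPM in WT replicates 1 to 4. KO replicate 1 was the highest of the 8 libraries and KO replicate 4 the lowest, so the KO range enclosed the WT range. The means were 52.6 ± 8.82 CPM in KO and 49.2 ± 4.98 CPM in WT. The log2 fold change was 0.09, with SE 0.12 and a 95% interval of -0.16 to 0.35 (edgeR adjusted p = 0.886). Without KO replicate 1 it was -0.0174. Astrocyte markers, summed over 9 genes of which all were found, came to 8846, 7558, 8176 and 8996 CPM in KO replicates 1 to 4 and 8884, 9011, 7510 and 7969 CPM in WT replicates 1 to 4. KO replicate 1 and KO replicate 4, at opposite ends for Grin2c, both exceeded the other KO libraries on this sum. Its largest part was Slc1a2, at 5030 CPM in KO replicate 1 and 5510 CPM in KO replicate 4. Gfap and Gjb6 were also higher in KO replicate 4 than in KO replicate 1. Aqp4, Aldh1l1, Slc1a3, Gja1, Aldoc and Fgfr3 were higher in KO replicate 1, as Grin2c was. The sum of WT replicate 2 held 1810 CPM of Gfap, an intermediate filament of astrocytes, against 442 to 578 CPM in the other 7 libraries. Thalamus markers, of which all 7 were found, summed to 87.0, 75.95, 75.6 and 67.2 CPM in KO replicates 1 to 4. In WT replicates 1 to 4 they summed to 75.2, 62.3, 71.1 and 77.6 CPM. Of these markers 7 of 7 were above 0 in log2 fold change, where 49.9% of all tested genes were below 0. None was called, and edgeR called 0% of all tested genes. In KO the thalamus sum was highest in replicate 1 and lowest in replicate 4, as Grin2c was. By marker this held for Prkcd, Lef1 and Tnnt1. Tcf7l2 and Ramp3 were highest in KO replicate 1 but not lowest in KO replicate 4. Among KO libraries Plekhg1 was highest in replicate 3, and Zic4 in replicate 4 at 4.67 CPM. WT replicate 4 had the highest WT sum and the lowest WT level of Grin2c. KO replicate 1 also had the highest sum of cortex markers, at 186 CPM, against 148 to 151 CPM in the other KO libraries and 152 to 162 CPM in WT libraries. Striatum markers summed to 84.0 to 103 CPM in KO libraries and 77.5 to 111 CPM in WT libraries, with 98.5 CPM in KO replicate 1. The parts of astrocytes and of neighbouring tissue in the Grin2c levels were not tested.

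Grin2d (ENSMUSG00000002771, mm10 7:45831883 to 45878378, minus strand) was the least abundant member, with 292 to 576 counts per library. It had 15.7, 13.2, 10.1 and 12.4 CPM in KO replicates 1 to 4, against 15.2, 12.2, 13.0 and 13.5 CPM in WT replicates 1 to 4. The KO values again enclosed the WT values. The exact Poisson interval (95%) of the lowest count, 292 in KO replicate 3, ran from 259.5 to 327.5 counts, and that of the highest, 576 in KO replicate 1, from 529.9 to 625 counts. The means were 12.8 ± 2.29 CPM in KO and 13.5 ± 1.26 CPM in WT. The log2 fold change was -0.07, with SE 0.13 and a 95% interval of -0.35 to 0.21 (edgeR adjusted p = 0.932). Without KO replicate 3 it was 0.0261. Its level is uncertain, because the antisense gene Gm45441 overlaps 9.66% of its exon bases and held 121 to 202 counts, on average 39.3% of the counts of Grin2d, and no label says whether reads were counted by strand.

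Grin3a (ENSMUSG00000039579, mm10 4:49661611 to 49845744, minus strand) had the lowest p of the 6. It had 54.6, 47.8, 51.2 and 54.2 CPM in KO replicates 1 to 4, against 52.4, 56.2, 61.1 and 67.8 CPM in WT replicates 1 to 4. The ranges overlapped through WT replicate 1, which lay below 2 KO libraries, and 14 of the 16 pairs of a KO with a WT library had the lower value in KO. The means were 52.0 ± 3.18 CPM in KO and 59.4 ± 6.65 CPM in WT. The log2 fold change was -0.19 (SE 0.08, 95% interval -0.38 to -0.01), with an unadjusted edgeR p of 0.0420 that did not pass adjustment over all genes (adjusted p = 0.796; DESeq2 adjusted p = 0.777). By exact two-sided permutation over the 8 libraries p was 0.114, where 4 against 4 allows none below 0.0286. Over the alternatives tried, the log2 fold change stayed between -0.260 and -0.123 and its edgeR, limma or DESeq2 adjusted p between 0.439 and 0.997. WT replicate 4 carried most weight, since leaving it out gave the -0.123. Markers of GABA neurons, in some of which GluN3A is known to be present, summed to 1007 to 1026 CPM in KO and 1101 to 1164 CPM in WT. All 12 of these markers were found, and 10 had a log2 fold change below 0, against 49.9% of all tested genes. None was called, where edgeR called 0% of all tested genes, and their part in the level of Grin3a was not tested.

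**Figure D3:**
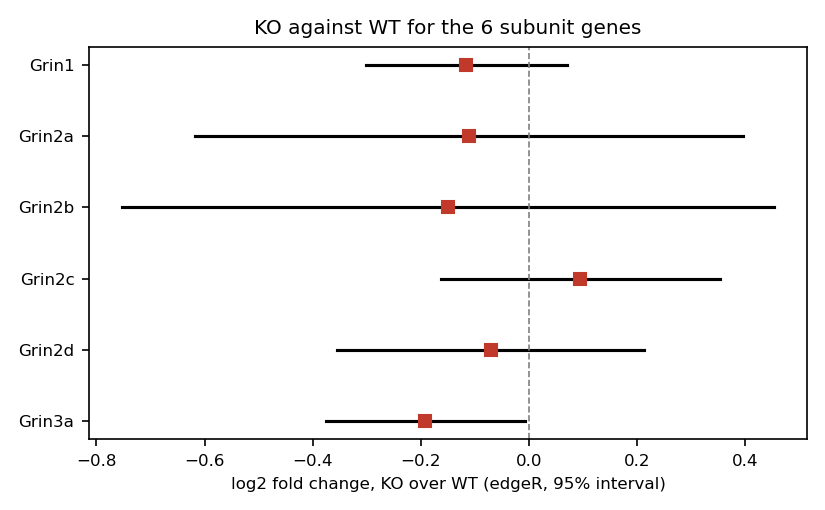
Log2 fold change of KO over WT for the 6 subunit genes from edgeR (squares) with 95% intervals (lines) and no change as a dashed line. Intervals of Grin2a and Grin2b are the widest, and that of Grin3a ends at -0.01.

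Grin3b, which encodes the remaining GluN3 subunit and is not among the 6 genes, had 0, 3, 4 and 0 counts in KO replicates 1 to 4 and 3, 5, 2 and 2 counts in WT replicates 1 to 4. It did not pass the filter, and no fold change was taken. The protein-coding gene Tmem259, on the opposite strand, overlaps 32.1% of the exon bases of Grin3b, and whether reads were counted by strand is not known.

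The spread of Grin2a and Grin2b was not shared by the other subunits. The biological coefficient of variation, which is the variation between libraries of a genotype beyond counting error, was 22.1% for Grin2a and 26% for Grin2b, above that of 85.8% and 91.4% of tested genes. It was 9.36% for Grin1, 12.0% for Grin2c, 13.8% for Grin2d and 9% for Grin3a, where the median over tested genes was 11.5%. Across the 8 libraries, log2 levels of Grin2a and Grin2b were correlated, with Pearson's r = 0.974 (exact permutation p = 0.000149, adjusted p = 0.00223 over the 15 pairs of members) and Spearman's rho = 0.929 (exact permutation p = 0.00223, adjusted p = 0.0335). With KO replicates 1 and 4 left out, the libraries farthest from the median of Grin2a, r was 0.924 (exact permutation p = 0.00833), and r was 0.973 after the mean of each genotype was removed. No other pair of members passed adjustment. The next in size were Grin2b with Grin2c (r = -0.742, rho = -0.571, exact permutation p = 0.0353 and 0.151, adjusted p = 0.265 and 0.756), which had r = -0.199 without KO replicates 1 and 4 and so rested on them, and Grin2a with Grin2c (r = -0.689, rho = -0.643, exact permutation p = 0.0535 and 0.0962, adjusted p = 0.267 and 0.721), which had r = 0.103 without them. Grin1, whose product assembles with both GluN2A and GluN2B, had r = 0.380 and rho = 0.286 with Grin2a (exact permutation p = 0.358 and 0.501, adjusted p = 0.621 and 0.767), and r = 0.884 without KO replicates 1 and 4 (exact permutation p = 0.0208, not adjusted over pairs). Grin1 and Grin2b had r = 0.276 and rho = 0.190 (exact permutation p = 0.501 and 0.665, adjusted p = 0.684 and 0.767), and r = 0.709 without KO replicates 1 and 4 (exact permutation p = 0.106).

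Grin2a and Grin2b have the longest transcripts of the 6 genes, and other genes with long transcripts moved in the same libraries. The 181 other tested genes whose longest protein-coding transcript exceeds 12 kb had median deviations from their own 8-library mean of -0.184, -0.144, -0.039 and 0.288 (log2) in KO replicates 1 to 4, and of 0.019, -0.005, -0.072 and 0.154 in WT replicates 1 to 4. KO replicate 1 was lowest and KO replicate 4 highest, with WT replicate 4 next. The deviations of Grin2b were -0.697, -0.285, -0.032 and 0.6 in KO replicates 1 to 4 and 0.074, 0.069, -0.212 and 0.483 in WT replicates 1 to 4. The level of Grin2b ranked the 8 libraries in the same order as the median of the long transcripts did. For the 1815 genes with transcripts up to 1500 bases the medians had the opposite sign at the extremes, 0.109 in KO replicate 1 and -0.078 in KO replicate 4. The class over 12 kb averaged -0.0198 ± 0.214 in KO and 0.0242 ± 0.0947 in WT, so its spread within KO far exceeded the gap between genotypes.

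Both genes moved further than most of that class. Between KO replicate 4 and KO replicate 1, chosen after seeing the data, Grin2a differed by 1.14 and Grin2b by 1.30 on the log2 scale, where the median of the class was 0.455, and they lay above 95.6% and 97.8% of its genes. Grin1 differed by -0.00528 and Grin3a by -0.0107 between the same 2 libraries, close to the median of all tested genes at 0.0014. Grin2c differed by -0.557 and Grin2d by -0.331, above 9.91% and 19.1% of tested genes, the opposite direction to Grin2a and Grin2b. Long transcripts were also poorer in G and C, with a median of 46.8% over 12 kb and 53.4% up to 1500 bases. Grin2a (44.8%) and Grin2b (45.7%) were at the low end of the members, and Grin1 (59.4%), Grin2c (62.1%) and Grin2d (65.0%) at the high end. The parts of transcript length, base composition and the tissue sampled in this pattern were not tested. With the median of the long class as a covariate in edgeR, an alternative added after seeing the data, the log2 fold change was -0.0617 for Grin2a (adjusted p = 0.922) and -0.0912 for Grin2b (adjusted p = 0.823).

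**Figure D4:**
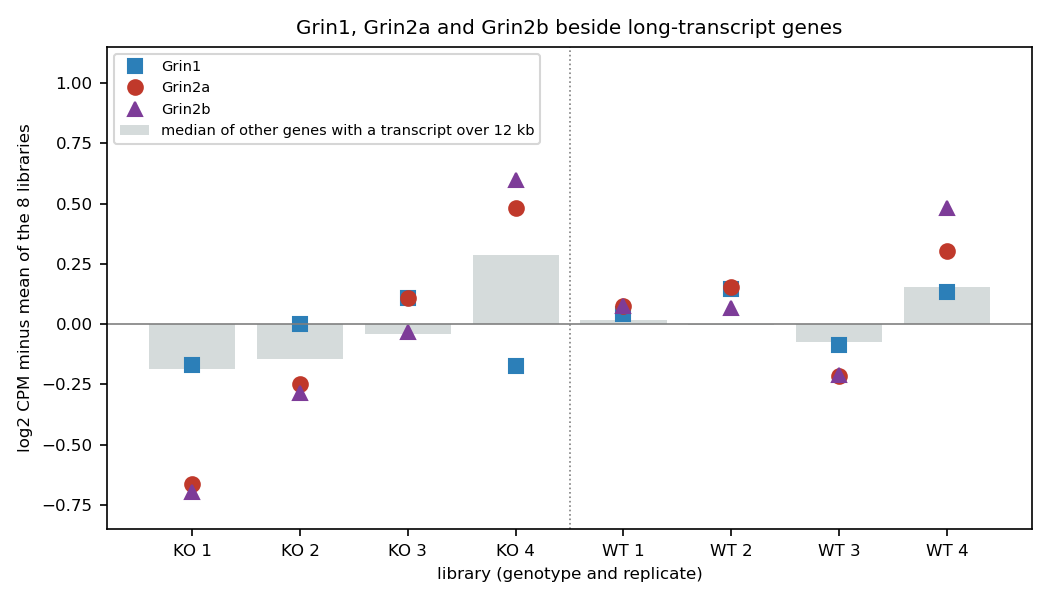
Deviation of log2 CPM from the mean of the 8 libraries for Grin1 (squares), Grin2a (circles) and Grin2b (triangles) in each KO library (left of the dotted line) and WT library (right), with grey bars for the median of the 181 other genes that have a transcript over 12 kb. Grin2a and Grin2b both take the sign of the bar at KO replicates 1, 2 and 4 and at WT replicates 1, 3 and 4, while Grin1 is below 0 in both KO replicate 1 and KO replicate 4.

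The ratio of Grin2a to Grin2b was steadier than either gene. Taken per kb of exon, it was 0.651, 0.653, 0.702 and 0.586 in KO replicates 1 to 4, against 0.637, 0.676, 0.634 and 0.563 in WT replicates 1 to 4. The lowest value was that of WT replicate 4 in WT and of KO replicate 4 in KO, and the highest of the 8 was 1.25 times the lowest. The means were 0.648 ± 0.0479 in KO and 0.628 ± 0.0472 in WT. The log2 ratio differed by 0.05 (SE 0.08; exact two-sided permutation p = 0.543, adjusted p = 0.869 over the 8 ratios compared), a difference smaller than the spread between libraries of a genotype, and it was -0.00437 without WT replicate 4. Grin2a was thus below Grin2b per kb in all libraries, and by coding length the mean ratio was lower still, at 0.474 in KO and 0.459 in WT.

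Ratios to Grin1, the obligatory subunit, spread much further. Grin2b to Grin1 was 0.395, 0.468, 0.517 and 0.975 in KO replicates 1 to 4, against 0.583, 0.540, 0.522 and 0.726 in WT replicates 1 to 4. KO replicate 4 stood above all other libraries, and the other 3 KO libraries lay below all WT libraries. The log2 ratio differed by -0.09 (SE 0.30; exact permutation p = 0.771, adjusted p = 0.886), by -0.362 without KO replicate 4, by 0.0723 without KO replicate 1 and by 0.0131 without WT replicate 4. For Grin2a to Grin1 the mean was 0.374 ± 0.138 in KO and 0.369 ± 0.0317 in WT, a log2 difference of -0.04 (SE 0.26; exact permutation p = 0.857, adjusted p = 0.886) that was -0.267 without KO replicate 4 and turned positive without KO replicate 1, KO replicate 2 or WT replicate 4, at 0.116, 0.0337 and 0.00874. The summed GluN2 level was 0.992, 1.01, 1.10 and 1.78 times that of Grin1 in KO replicates 1 to 4, and 1.21, 1.12, 1.08 and 1.33 times in WT replicates 1 to 4, per kb of exon.

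The remaining subunit ratios overlapped between genotypes as well. Grin2c to Grin1 was 0.287, 0.194, 0.192 and 0.196 in KO replicates 1 to 4 and 0.209, 0.186, 0.190 and 0.160 in WT replicates 1 to 4, with KO replicate 1 apart from the other KO libraries. Its log2 difference was 0.20 (SE 0.16; exact permutation p = 0.314, adjusted p = 0.838), and 0.0618 without KO replicate 1. Grin2d to Grin1 averaged 0.0404 ± 0.0101 in KO and 0.0388 ± 0.00488 in WT, with adjusted p = 0.886 by exact permutation, and its log2 difference of 0.03 was -0.105 without KO replicate 1 and -0.0415 without WT replicate 2. Grin3a to Grin1 was 0.0994, 0.0773, 0.0769 and 0.0990 in KO replicates 1 to 4 and 0.0824, 0.0821, 0.105 and 0.1 in WT replicates 1 to 4. KO replicates 1 and 4 lay near WT replicates 3 and 4 on this ratio, and adjusted p was 0.869 by exact permutation.

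**Figure D5:**
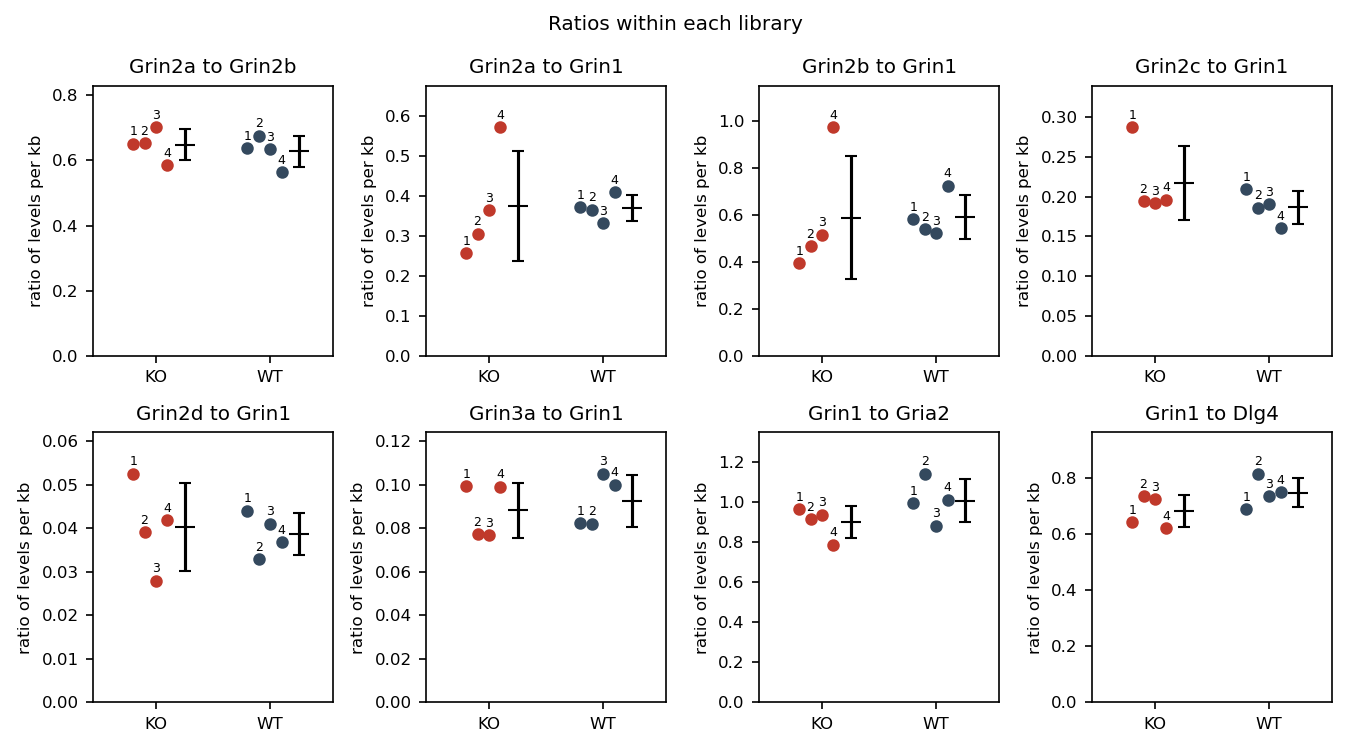
The 8 ratios of levels per kb of exon within each library, KO (red) left of WT (dark blue), with replicate numbers and the mean ± SD. Grin2a to Grin2b stays between 0.563 and 0.702, while Grin2b to Grin1 runs from 0.395 to 0.975, both ends in KO.

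Grin1 was also set against Gria2 and Dlg4, genes of other proteins of the excitatory synapse. Its ratio to Gria2, the AMPA receptor subunit that limits calcium entry, was 0.964, 0.912, 0.936 and 0.786 in KO replicates 1 to 4 and 0.993, 1.14, 0.881 and 1.01 in WT replicates 1 to 4. The log2 difference was -0.16 (SE 0.10; exact permutation p = 0.200, adjusted p = 0.800), and it was -0.0971 without KO replicate 4 and -0.0998 without WT replicate 2. Its ratio to Dlg4, which encodes the scaffold PSD-95 that anchors NMDA receptors, averaged 0.682 ± 0.0573 in KO and 0.747 ± 0.0521 in WT (log2 difference -0.13, SE 0.08; exact permutation p = 0.171, adjusted p = 0.800). Summed per kb of exon, the 6 NMDA receptor genes reached 93.7, 105, 118 and 129 CPM per kb in KO replicates 1 to 4 and 119, 123, 104 and 134 CPM per kb in WT replicates 1 to 4. The 4 AMPA receptor genes summed to 294 ± 36.1 CPM per kb in KO and 307 ± 11.2 CPM per kb in WT, and the 5 kainate receptor genes to 70.85 ± 0.792 CPM per kb in KO and 73.3 ± 2.93 CPM per kb in WT. The NMDA and AMPA sums were both lowest in KO replicate 1, whereas the kainate sum hardly varied among KO libraries, at 70.2 to 71.7 CPM per kb.

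The genes whose log2 levels were most like each member over the 8 libraries were found by Pearson's r among 14292 tested genes, as a description, since they share the libraries and their depth. Nearest to Grin2a were Tnr, which encodes the matrix protein tenascin-R, and Erc1, an active zone scaffold (r = 0.994 for both). Nearest to Grin2b were Rab30, a small GTPase (r = 0.989), and Taok1, a kinase (r = 0.988). Their longest transcripts have 12202, 8760, 9456 and 12409 bases. Tnr had 230.5, 265, 307 and 373 CPM in KO replicates 1 to 4 and 304, 313.5, 268 and 338 CPM in WT replicates 1 to 4. It has the pattern of Grin2a with a smaller span. An r over 0.9 was reached by 488 genes with Grin2a and 369 with Grin2b, but by 36 with Grin1, 17 with Grin2c, 14 with Grin2d and 13 with Grin3a. Nearest to Grin1 were Bcl11a, a transcription factor (r = 0.982), and Minpp1, an inositol polyphosphate phosphatase (r = 0.980). Nearest to Grin2c were Srebf1, a regulator of lipid synthesis (r = 0.958), and Cbs, cystathionine beta-synthase (r = 0.944). Grin2d was nearest to Bhlha9 (r = 0.963) and Mipol1 (r = 0.943), both of low level, and Grin3a to Prag1 (r = 0.964) and Gabra3, a GABA-A receptor subunit (r = 0.949). Srebf1 had 98.5, 79.5, 83.1 and 67.7 CPM in KO replicates 1 to 4 and 84.7, 86.3, 77.0 and 73.5 CPM in WT replicates 1 to 4, highest in KO replicate 1 and lowest in KO replicate 4 as Grin2c was.

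Genes that act around the receptor were described in 5 lists, and no member of any was called by edgeR, which called 0% of all tested genes. Their counts below 0 stand beside 49.9% of all tested genes. Of the genes that make, move or break down its co-agonists, 5 of 10 tested lay below 0, with a median log2 fold change of 0.04. The neutral amino acid transporter Slc1a4, which carries D-serine, had 74.0 ± 3.06 CPM in KO and 88.1 ± 19.8 CPM in WT, and Gldc, the glycine-cleaving enzyme, 67.7 ± 3.83 CPM in KO and 54.9 ± 13.5 CPM in WT (edgeR adjusted p = 0.796 for both). WT replicate 2 had the highest WT level of Slc1a4 (118 CPM) and the lowest of Gldc (37.5 CPM). The KO and WT values of Slc1a4 did not overlap, as in 3.80% of all tested genes, but came close. Its highest KO library had 76.161 CPM and its lowest WT library 76.216 CPM. Dao and Slc6a5, a glycine transporter, did not pass the filter. Scaffolds and partners had 18 of 28 below 0 and a median of -0.03. Among them Nlgn1, the synaptic adhesion protein neuroligin-1, had 114 ± 18.7 CPM in KO and 129.6 ± 6.39 CPM in WT. Neto1, an auxiliary protein found with kainate and NMDA receptors, had 112 ± 14.3 CPM in KO and 124 ± 7.49 CPM in WT (edgeR adjusted p = 0.797).

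Kinases and phosphatases that act on the receptor or are driven by its calcium had 21 of 26 below 0 and a median of -0.06, and 3 of them had an unadjusted p under 0.05, as did 6.16% of all tested genes. Ppp1cc, a catalytic subunit of protein phosphatase 1, had 6.41 ± 0.791 CPM in KO and 5.10 ± 0.433 CPM in WT, which is 0.33 on the log2 scale (SE 0.12; edgeR adjusted p = 0.796). Csnk2a2, a catalytic subunit of casein kinase 2, had 50.4 ± 1.01 CPM in KO and 55.3 ± 2.31 CPM in WT, which is -0.14 on the log2 scale (SE 0.05; edgeR adjusted p = 0.796). The KO and WT values of Csnk2a2 did not overlap, as in 3.80% of all tested genes, but it was named for its low p. In the same list the values of Cdk5r1, Csnk2b and Prkaca did not overlap either, and all were lower in KO. Effectors of calcium and Ras had 14 of 23 below 0 and a median of -0.00908, with Map2k1, a kinase of the Ras pathway, at 335 ± 7.89 CPM in KO and 355 ± 16.6 CPM in WT (edgeR adjusted p = 0.814). Transcription regulators of subunit genes had 5 of 10 below 0 and a median of 0.0099. Rest, a repressor of neuronal genes known to act on Grin1 and Grin2b, had 8.82 ± 0.982 CPM in KO and 7.54 ± 1.05 CPM in WT (log2 fold change 0.23, SE 0.12; edgeR adjusted p = 0.796). Mef2c, a neuronal activity-dependent factor, had 167 ± 15.2 CPM in KO and 154 ± 9.30 CPM in WT (edgeR adjusted p = 0.799).

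Markers of granule and pyramidal cells were given as sums of CPM. Granule cell markers came to 666, 634, 665 and 759 CPM in KO replicates 1 to 4 and 669, 562, 537 and 594 CPM in WT replicates 1 to 4, with all 9 above 0 in log2 fold change. CA1 markers came to 715, 741, 904 and 711 CPM in KO replicates 1 to 4 and 825, 813, 793.5 and 932.5 CPM in WT replicates 1 to 4, with 6 of 7 below 0. CA2 and CA3 markers came to 423, 529, 538 and 589 CPM in KO replicates 1 to 4 and 568, 545, 522.5 and 562 CPM in WT replicates 1 to 4, with 7 of 8 below 0. KO replicate 1, the lowest library for Grin2a and Grin2b, thus also had the lowest sum of CA2 and CA3 markers, although Bok and Coch were lowest in WT libraries. KO replicate 4, the highest for Grin2a and Grin2b, had the highest sums for granule cells and for CA2 and CA3. By marker this held only for Prox1, Stxbp6, Dock10 and Pdzd2 of the granule cell list and for Cpne4 and Coch of the CA2 and CA3 list. The other markers of both lists were highest in other libraries. On CA1 markers KO replicates 1 and 4 were close, at 715 and 711 CPM, both below every other library. Of other cell types, 8 of 8 oligodendrocyte markers, 8 of 8 microglia markers and 6 of 6 endothelial markers were above 0 in log2 fold change. So were 7 of 9 astrocyte markers, while 3 of 3 oligodendrocyte precursor markers were below 0. These counts stand beside 49.9% of all tested genes below 0. No marker was called by edgeR, which called 0% of all 16228 tested genes. The part of these cells in the levels of the subunits was not tested.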

How the data were processed

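Per the labels' protocols, 4 KO and 4 WT libraries of hippocampal poly(A) RNA were made from 1000 ng of total RNA with a kit that marks strand by dUTP, and amplified by 12 cycles of PCR. The authors deposited whole-number read counts per Ensembl gene without normalization, per the file headers. Per the submitters' processing notes, bcl2fastq 2.17.1.14 was used and mm10 is the genome build. For the aligner, counter, annotation and strand setting, a name or value is not given in the sources used here. Symbols, positions and lengths came from GENCODE M21, which named 31292 of the IDs and left 125 without a symbol.

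Genotypes were compared on these counts with edgeR 4.0.16 (R 4.3.3; TMM, filterByExpr, robust quasi-likelihood F test, Benjamini-Hochberg over all tested genes, called under 0.05), with DESeq2 1.42.0 and limma 3.58.1 (voom with quality weights) as alternatives. SE is the log2 fold change divided by the square root of F. Ratios used log2 of counts plus 0.5 and exact two-sided permutation over libraries. Pairs of libraries of a genotype differed beyond sampling noise (chi-square per degree of freedom 8.85 to 40.9), so all 8 were kept. The pipeline was tested on simulated data. The members, lists, ratios and tests were chosen with earlier results of these data known. Genes were named as the 6 members, Dclk3, Grin3b, Gria2, Dlg4, the 2 lowest p of each list around the receptor and the 2 genes most alike to each member, without pseudogenes and genes known by a Gm or Rik number. One gene that this rule names is not reported here. Gm45441, Grin1os and Tmem259 were named for their overlap with a subunit gene. Cdk5r1, Csnk2b and Prkaca were named because their KO and WT values did not overlap. The transcript length classes were added after seeing the data.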

Additional observations from a re-analysis of the deposited data

Results flagged for a closer look

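In 34 groups of 4 values (levels and ratios in KO or in WT), the highest or lowest library was compared with the others by Dixon's ratio at a critical value of 0.829. Chance flags about 1 in 20 such groups, and 2 stood out. The ratio of Grin2c to Grin1 per kb of exon was 0.2869 in KO replicate 1, while KO replicates 2 to 4 had 0.192 to 0.196 and the WT libraries 0.160 to 0.209. The level of Dclk3 was 39.3 CPM in WT replicate 2, against 20.8 to 23.5 CPM in the other 3 WT libraries and 5.92 to 9.29 CPM in KO.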

How the results depend on the processing

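No alternative called any of the 6 genes. Over 18 alternatives per gene Grin1 and Grin3a kept a log2 fold change below 0. With a library left out in turn, the log2 fold change ranged from -0.176 to -0.075 for Grin1, -0.248 to -0.123 for Grin3a, -0.326 to 0.0559 for Grin2a, -0.439 to 0.0216 for Grin2b, -0.0174 to 0.17 for Grin2c and -0.177 to 0.0261 for Grin2d, and the cause of these changes of sign was not tested. The log2 ratios ranged from -0.00437 to 0.0948 for Grin2a to Grin2b, -0.267 to 0.116 for Grin2a to Grin1, -0.362 to 0.0723 for Grin2b to Grin1 and -0.105 to 0.198 for Grin2d to Grin1. The other ratios kept their sign, at 0.0618 to 0.262 for Grin2c to Grin1, -0.131 to -0.00589 for Grin3a to Grin1, -0.222 to -0.0971 for Grin1 to Gria2 and -0.171 to -0.0907 for Grin1 to Dlg4. Grin2a over Grin2b per kb was 0.769 in KO and 0.745 in WT by the longest transcript, and 0.474 in KO and 0.459 in WT by coding length. Over all genes the count called was 0 in edgeR (1000 at an unadjusted p under 0.05), 5 in DESeq2, 1 with the replicate block and 0 to 1 with a library left out. The 1000 became 1505 with limma-voom, 556 when WT replicate 4 was left out, 640 when KO replicate 2 was and 1777 when KO replicate 4 was. Over all tested genes, replicate numbers did not pair the libraries: same-numbered deviations correlated at 0.139, 0.116, -0.219 and -0.0142, and only replicate 2 matched its own number best. Choroid plexus markers, however, were highest in replicate 2 and next in replicate 3 in both genotypes. Their sums were 187, 3434, 1097 and 240.5 CPM in KO replicates 1 to 4 and 191, 2201, 893 and 69.6 CPM in WT replicates 1 to 4. Whether same-numbered libraries shared handling was not tested. The block left all signs of the members as they were. Among the 6 genes counting error was largest for Grin2d, at 4.85% of a level, below its biological coefficient of variation of 13.8%. Grin3b had too few counts to be measured.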
